A study of Mus musculus with 10 samples.

Results

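The bone morphogenetic protein (BMP) signalling and Id genes were measured in C2C12 cells given either a mimic of miR-27a-3p or a scrambled control. The group comprised 10 genes, Bmp4, Grem1, Bmpr1a, Bmpr2, Smad1, Smad5, Smad6, Id1, Id2 and Id3, taken by the gene name that the array files give each probe. They had 14 of the 55681 probes on the array, and 9 genes had a probe bright enough to be tested, among 13138 genes and transcripts tested in all. C2C12 is an established mouse myoblast line that can fuse into myotubes and that has long been used to study the BMP response. A mimic is a short synthetic duplex RNA from which the cell takes up the mature microRNA strand. Both groups were C2C12 myoblasts transfected with Lipofectamine 2000 at 150 nM and collected 72 h later. The labels estimate a transfection efficiency of 60%, so each sample also holds cells that took up no RNA. The labels give 6 mimic and 4 scrambled samples, and untreated cells were not analysed here.

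BMP ligands bind a complex of type I and type II receptor kinases. The type I receptor phosphorylates Smad1 and Smad5, which join Smad4, enter the nucleus and switch on target genes. Id1, Id2 and Id3 are among the best known of these targets. Id proteins have a helix-loop-helix domain but no DNA-binding region. They capture the E proteins that MyoD and myogenin need as partners, and so keep myoblasts from differentiating. In C2C12 cells, added BMP is known to block myotube formation and to turn on osteoblast genes. Secreted antagonists such as gremlin 1 bind the ligands outside the cell, and Smad6 inhibits the pathway from within.

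The microRNA supplied by the mimic and its closest relative are shown because they share a seed, the stretch that pairs with target transcripts. The sequences run 5′ to 3′, from RefSeq on GRCm38.p6, with the seed (bases 2 to 8) in capitals.
mmu-miR-27a-3p: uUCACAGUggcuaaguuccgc
mmu-miR-27b-3p: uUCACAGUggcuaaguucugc
Mature miR-27a-3p is encoded at chr8:84208727-84208747 on the plus strand and miR-27b-3p at chr13:63300760-63300780 on the plus strand. They differ by C19U, counted from the 5′ end of miR-27a-3p. The DNA letters complementary to the seed, ACTGTGA, occurred in 0 of the 14 probes of these genes and in 455 of all 55681 probes (0.817%), on the strand printed in the files. Probes are 60 bases long, so this says only what these short stretches hold.

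The 10 files came from 1 slide and were 2 scans each of 5 array positions. Non-uniform spot flags were shared by 21 to 75 spots between files from the same position, and by 0 in each of the 40 other pairs of files. Files were averaged by position, which gave 3 mimic arrays (samples 1 and 4, 2 and 5, 3 and 6) and 2 scrambled arrays (samples 1 and 3, 2 and 4). The labels describe the samples as separate transfections, and how 1 position could carry a pair of them is not settled by the files. All p-values rest on the spread among 5 arrays, part of which may be technical, and the number of arrays limits the precision. Between 27% and 35.3% of the spots other than controls were well above background in a file, and none of these genes' spots was saturated. Over all genes, the scrambled arrays differed from each other with a standard deviation of 0.56 on the log2 scale. That spread was 0.32 to 0.44 between mimic arrays. It was 0.50 to 0.61 between scrambled array 1 and the mimic arrays, and 0.72 to 0.75 between scrambled array 2 and the mimic arrays.

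Each level is a log2 signal from which its file's 75th percentile over detected probes was taken off, and a difference is mimic minus scrambled. A level of one probe was not read as an amount of RNA against that of another. Ratios between genes were compared only across arrays. Summed marker signals weight each gene by the brightness of its probe. A gene is said to have risen or fallen where the adjusted p of limma's moderated test was below 0.05 after Benjamini-Hochberg adjustment over all 13138 genes and transcripts. At this threshold 676 of them, 5.15%, were called, and 1 of the 9 tested genes of the group, Bmp4, was called. It was higher after the mimic, as were 2.8% of all genes tested, and 0 of the 9 were called lower, against 2.34% of all. At an unadjusted p below 0.05, 5 of the 9 passed, against 25.3% of all genes tested. The mimic and scrambled arrays did not overlap for 5 of the 9, against 45.6% of all genes tested. In 2 of these the mimic arrays were higher (19.8% of all genes) and in 3 lower (25.8% of all genes). The median difference was -0.01 over the 9 genes and -0.05 over all genes tested. The counts by unadjusted p and by overlap are read against these shares and not as calls. The labelled cells held 1 cell line, but the RNA is that of whole cultures, in which fewer cells of a kind and less RNA per cell cannot be told apart.

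**Figure D1:**
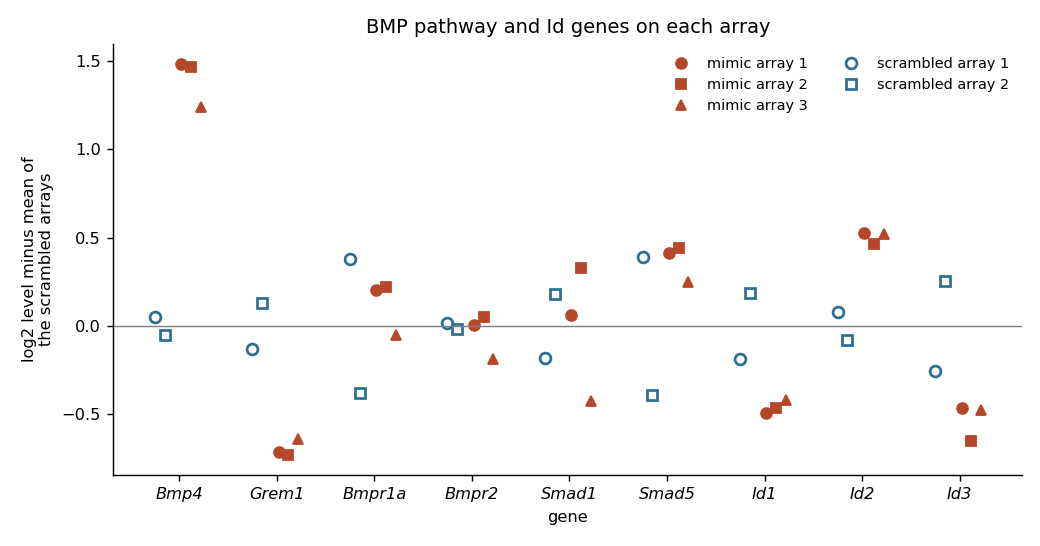
Level of each of the 9 tested genes on each array (y axis, log2, minus the mean of the scrambled arrays for that gene), with genes on the x axis. Filled symbols are the 3 mimic arrays and open symbols the 2 scrambled arrays. The mimic arrays lie above both scrambled arrays for Bmp4 and Id2 and below both for Grem1, Id1 and Id3, while the scrambled arrays of Bmpr1a, Smad5 and Id3 are far apart.

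Bmp4, the ligand of the group, rose after the mimic. Bmp4 is a secreted protein that in muscle keeps precursor cells dividing and holds back their differentiation. Its level was 0.10, 0.08 and -0.14 on mimic arrays 1, 2 and 3, and -1.33 and -1.43 on scrambled arrays 1 and 2. All 3 mimic arrays lay above both scrambled arrays, and the gap between groups exceeded the spread within either. The mean was 0.01 ± 0.14 (SD, n = 3) with the mimic and -1.38 ± 0.07 (SD, n = 2) with the scrambled sequence. The difference was 1.40 ± 0.15 (SE), 2.63-fold, with a 95% confidence interval of 1.03 to 1.76 and an adjusted p of 0.0101 (limma). Of all genes tested, 2.42% had a larger absolute difference.

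The processed signal of the Bmp4 probe was 2325 to 3297 in the 6 mimic files and 725 to 1001 in the 4 scrambled files, before any scaling. The separation of the groups was thus present in the signals as deposited. In the first scan alone the difference was 1.37 (adjusted p = 0.013, limma) and in the second scan alone 1.42 (adjusted p = 0.0124, limma). The call depended on the mimic arrays that were kept. Without mimic array 1 the difference was 1.35 (adjusted p = 0.0772, limma), and without mimic array 2 it was 1.36 (adjusted p = 0.0635, limma); 47 and 79 genes were called over the whole table in these fits. With any other array left out it remained called, at 1.48 without mimic array 3, 1.45 without scrambled array 1 and 1.35 without scrambled array 2.

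The bright Bmp4 probe lies at chr14:47003391-47003450 on mm9, on the minus strand, and starts at position 1738 of its transcript per the files. A further Bmp4 probe, at chr14:47003198-47003257 and transcript position 1931, was well above background in 0 of the 10 files. The rise therefore rests on 1 probe. Where these positions fall relative to the end of the coding region was not determined here.

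The other BMP ligands did not give a value that could be tested. Of 13 further ligand genes on the array, among them Bmp2, Bmp6 and Bmp7, 0 passed the filter of 4 files well above background. Of these, 11 were well above background in no file, and Bmp5 and Gdf5 reached at most 2 files. Bmp4 was the only ligand gene of those examined that passed the filter.

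Grem1 encodes gremlin 1, which binds BMP2 and BMP4 and keeps them from their receptors. Its level was -1.89, -1.91 and -1.81 on mimic arrays 1, 2 and 3, and -1.30 and -1.04 on scrambled arrays 1 and 2. All 3 mimic arrays lay below both scrambled arrays. The mean was -1.87 ± 0.05 (SD, n = 3) with the mimic and -1.17 ± 0.19 (SD, n = 2) with the scrambled sequence. The difference was -0.70 ± 0.15 (SE), with a 95% confidence interval of -1.06 to -0.33, and missed the threshold (adjusted p = 0.057, limma). Without scrambled array 1 it was -0.83, and without scrambled array 2 it was -0.57. The probe lies at chr2:113589227-113589286 on mm9, on the minus strand.

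Within an array the ligand and the antagonist can be compared with no scaling between files. The log2 ratio of the Bmp4 signal to the Grem1 signal was higher by 2.09 on the mimic arrays, and the 3 mimic values did not overlap the 2 scrambled ones (two-sided exact permutation test, p = 0.1, the smallest that its 10 splits of the 5 arrays allow). A ratio of this kind bears on whether the genes differed unequally, and not on which of them moved. All mimic arrays already lay higher for Bmp4 and lower for Grem1, so the ratio had to separate. Its p-value adds no support to the levels.

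**Figure D2:**
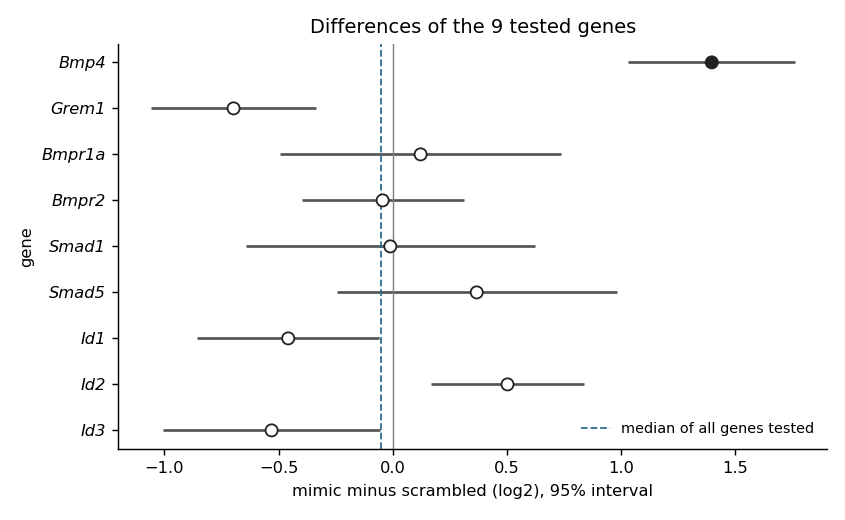
Difference between mimic and scrambled arrays of each tested gene (x axis, log2, points) with its 95% confidence interval from limma (bars), and genes on the y axis. The filled point is the called gene and the dashed line the median of all genes tested, -0.05. Bmp4 stands at 1.40, the intervals of Grem1, Id1, Id2 and Id3 also leave out 0, and those of the receptors and Smads include it.

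The receptor genes did not differ beyond the spread between arrays. Bmpr1a encodes a type I receptor kinase, which phosphorylates the Smads. Its level was -1.04, -1.02 and -1.29 on mimic arrays 1, 2 and 3, and -0.86 and -1.62 on scrambled arrays 1 and 2. The scrambled arrays lay on either side of all 3 mimic arrays, 0.76 apart. The difference was 0.12 ± 0.25 (SE), with a 95% confidence interval of -0.49 to 0.74 (adjusted p = 0.777, limma). Bmpr2 encodes the type II receptor that activates type I receptors. Its level was -3.43, -3.38 and -3.62 with the mimic and -3.42 and -3.45 with the scrambled sequence, so the groups overlapped. The difference was -0.04 ± 0.14 (SE), with a 95% confidence interval of -0.40 to 0.31 (adjusted p = 0.862, limma). The interval of Bmpr1a is wider than that of Bmpr2, and both leave out a change of the size seen for Bmp4. The sign of the Bmpr2 difference was not stable, as it was 0.0906 with quantile normalization. The probes lie at chr14:35224339-35224398 (minus strand) and chr1:59927276-59927335 (plus strand) on mm9.

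Among the Smads, Smad5 was measured in all 10 files. Its level was 0.30, 0.33 and 0.14 on mimic arrays 1, 2 and 3, and 0.28 and -0.50 on scrambled arrays 1 and 2. Scrambled array 1 lay among the mimic arrays and scrambled array 2 below them. The difference was 0.37 ± 0.25 (SE), with a 95% confidence interval of -0.25 to 0.98 (adjusted p = 0.389, limma). It was 0.76 (adjusted p = 0.0233, limma) without scrambled array 1 and -0.02 without scrambled array 2, so a single array decided its size. Smad5 was read by the probe at chr13:56843578-56843637 (plus strand, mm9), and another Smad5 probe was well above background in 0 files.

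Smad1, which carries the same signal as Smad5, was near the limit of the array. The probe used, at chr8:81880234-81880293 (minus strand, mm9), passed the background test in 4 of 6 mimic files and 2 of 4 scrambled files, and the other Smad1 probes in 1 and 0 of the 10 files. Its level was -4.51, -4.25 and -5.0 with the mimic and -4.76 and -4.39 with the scrambled sequence. The groups overlapped, and the difference was -0.01 ± 0.26 (SE; adjusted p = 0.982, limma), with a 95% confidence interval of -0.64 to 0.62. With quantile normalization the sign turned, to 0.18. Smad6, the inhibitory Smad that BMP itself induces, was well above background in 0 of 10 files at chr9:63800980-63801039 (minus strand, mm9) and was not tested.

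The differences of the 3 Id genes did not share a sign, and none passed the threshold. Id1 had a level of -1.34, -1.31 and -1.26 on mimic arrays 1, 2 and 3, and of -1.03 and -0.66 on scrambled arrays 1 and 2. All 3 mimic arrays lay below both scrambled arrays. The difference was -0.46 ± 0.16 (SE), with a 95% confidence interval of -0.86 to -0.06 (adjusted p = 0.156, limma). Id1 is the target most used as a readout of BMP signalling, and its probe lies at chr2:152563083-152563142 (plus strand, mm9).

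Id3, an inhibitor of the same E proteins, had a level of -0.983, -1.17 and -0.999 with the mimic, and of -0.77 and -0.27 on scrambled arrays 1 and 2. The mimic arrays again lay below both scrambled arrays, but the scrambled arrays were 0.51 apart. The difference was -0.53 ± 0.19 (SE), with a 95% confidence interval of -1.01 to -0.06 (adjusted p = 0.165, limma). The Id3 probe is shown because its 60 bases map to 175 bases of the genome, chr4:135700075-135700249 (plus strand, mm9), so that it bridges a gap in the alignment and reads spliced transcript.
Id3 probe: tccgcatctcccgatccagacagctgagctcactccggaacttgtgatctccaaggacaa

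The difference of Id2 had the opposite sign. Its level was -1.44, -1.50 and -1.45 on mimic arrays 1, 2 and 3, and -1.89 and -2.05 on scrambled arrays 1 and 2. All 3 mimic arrays lay above both scrambled arrays, with the narrowest spread of the Id genes in both groups. The difference was 0.50 ± 0.14 (SE), with a 95% confidence interval of 0.17 to 0.84 (adjusted p = 0.0973, limma). Id2 is a target of BMP that is also induced by other pathways, and its probe lies at chr12:25778904-25778963 (minus strand, mm9).

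The Id genes were then compared with each other within each array. The log2 ratio of Id2 to Id1 was higher by 0.96 on the mimic arrays and that of Id2 to Id3 by 1.03, with no overlap between the groups in either. The two-sided exact permutation p was 0.1 for both, the smallest its 10 splits allow. All mimic arrays already lay above both scrambled arrays for Id2 and below both for Id1 and Id3. These ratios therefore had to separate, and their p-values add no support to the levels. The ratio of Id1 to Id3 differed by 0.07 and overlapped (exact permutation p = 0.5). Together with the Bmp4 and Grem1 ratio these were 4 comparisons, and over them the Benjamini-Hochberg adjusted exact p was 0.133 for the 3 that did not overlap. None could pass a threshold of 0.05 in this design.

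None of the Id genes was called with all 5 arrays, and leaving out scrambled array 1 brought all 3 past the threshold. Without it the difference was -0.64 for Id1 (adjusted p = 0.0222), 0.58 for Id2 (adjusted p = 0.0261) and -0.78 for Id3 (adjusted p = 0.0218), all by limma. In that fit 4352 genes were called over the whole table. Without scrambled array 2 the differences were -0.27 for Id1, 0.42 for Id2 and -0.28 for Id3, and none was called. Taking the 10 files as separate arrays also called all 3, and fits of the 10 files with a block called Id2. The fit of separate files counts 2 scans of an array as 2 replicates and called 4512 genes over the whole table. Its calls of the Id genes are therefore not read as support. The signs were the same in each of the 30 alternatives tried. In the first and second scan alone the values were -0.46 and -0.46 for Id1, 0.45 and 0.55 for Id2, and -0.51 and -0.55 for Id3.

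**Figure D3:**
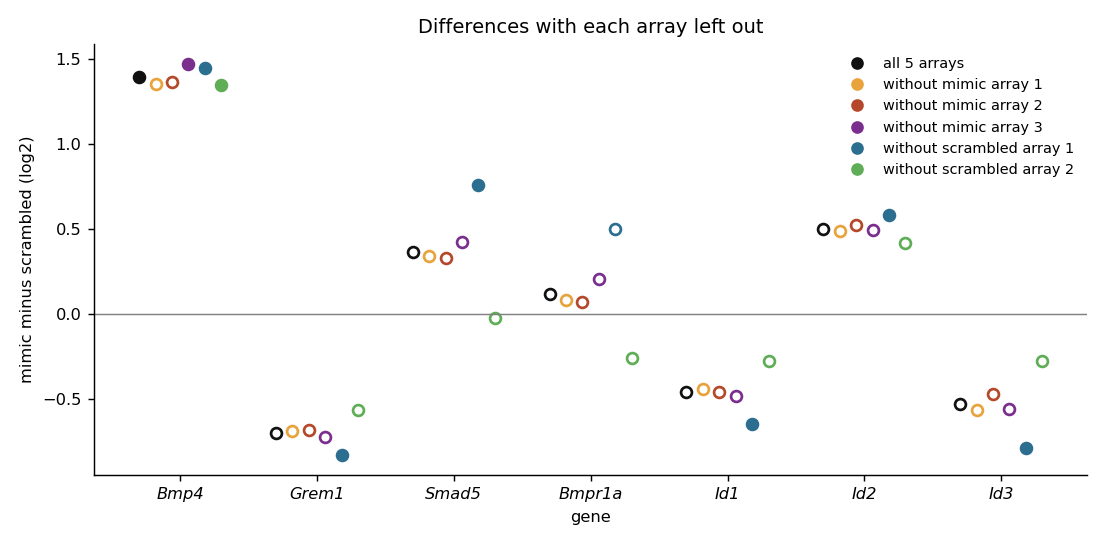
Difference of 7 of the genes (y axis, log2, mimic minus scrambled) with all 5 arrays and with each array left out in turn, with genes on the x axis and colours for the array left out. Filled points have a limma adjusted p below 0.05. Bmp4 stays between 1.35 and 1.48, while Smad5, Bmpr1a, Id1 and Id3 spread most, according to which scrambled array is left out.

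Upstream sequences are shown for Bmp4, Grem1, Id2 and Id3, which are members whose arrays did not overlap between groups. They hold the 250 bases before the annotated start in RefSeq on GRCm38.p6, 5′ to 3′ on the strand of the gene. GGCGCC, a motif known from BMP-responsive enhancers where Smad proteins bind, is in capitals.
Bmp4, chr14:46390670-46390919, minus strand: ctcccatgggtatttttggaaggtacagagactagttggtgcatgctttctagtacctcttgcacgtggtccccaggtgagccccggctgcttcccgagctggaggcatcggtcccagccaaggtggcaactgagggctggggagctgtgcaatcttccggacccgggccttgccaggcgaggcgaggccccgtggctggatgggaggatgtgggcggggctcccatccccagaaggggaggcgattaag
Grem1, chr2:113758649-113758898, minus strand: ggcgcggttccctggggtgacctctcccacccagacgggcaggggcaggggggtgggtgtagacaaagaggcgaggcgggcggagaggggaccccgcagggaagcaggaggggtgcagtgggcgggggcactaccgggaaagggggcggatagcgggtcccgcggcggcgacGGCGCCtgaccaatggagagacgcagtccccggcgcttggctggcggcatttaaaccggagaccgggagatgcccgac
Id2, chr12:25096093-25096342, minus strand: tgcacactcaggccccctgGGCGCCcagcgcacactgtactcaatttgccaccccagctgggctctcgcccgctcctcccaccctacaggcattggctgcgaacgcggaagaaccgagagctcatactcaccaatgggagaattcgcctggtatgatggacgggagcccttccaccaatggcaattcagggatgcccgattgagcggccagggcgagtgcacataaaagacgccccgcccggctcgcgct
Id3, chr4:136143572-136143821, plus strand: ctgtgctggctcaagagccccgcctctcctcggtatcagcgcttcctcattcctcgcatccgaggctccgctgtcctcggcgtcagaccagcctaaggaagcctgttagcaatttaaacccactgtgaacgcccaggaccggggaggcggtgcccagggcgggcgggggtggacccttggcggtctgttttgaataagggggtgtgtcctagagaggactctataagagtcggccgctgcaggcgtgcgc
The motif begins 78 bases before the start of Grem1 and 231 bases before that of Id2, and its letters are not in the windows of Bmp4 and Id3. Windows of 300 bases, 250 before and 50 after each start, were available for 9 of the 10 genes, all but Id1, and were 11 in all. GGCGCC, which reads the same on both strands, was in 6 of these 11 windows, those of Bmpr1a, Bmpr2, Grem1, Id2 and Smad5, and in 3898 of all 32851 windows (11.9%). Smad5 had 3 of the 11 windows, and those of them with the motif overlap and hold the same site. By gene the motif was in 5 of the 9 that had a window. The GC content of the printed windows was 63.2% for Bmp4, 72.0% for Grem1, 62.8% for Id2 and 62.8% for Id3, against a median of 52.4% over all windows. The Smad-binding palindrome GTCTAGAC was in the Smad6 window alone among the 11 and in 70 of all windows (0.213%). Neither motif contains the other. A gene with GGCGCC in its window was higher after the mimic (Id2) and another was lower (Grem1), and neither was called.

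The rest of the pathway was read from gene lists. Over all genes tested 2.8% rose and 2.34% fell, and the counts of each list are read against these shares. Of 9 further receptor and co-receptor genes, 6 were tested, 0 rose and 1 fell, with a median difference of -0.28. The gene that fell was Hjv, which encodes hemojuvelin, a BMP co-receptor made in muscle and liver. Its level was -3.97, -3.83 and -4.44 after the mimic and -2.58 and -1.86 after the scrambled sequence, with no overlap. The difference was -1.86 ± 0.29 (SE; adjusted p = 0.0254, limma), and 4 of 6 mimic files and 4 of 4 scrambled files had it well above background. Hjv was lower in all 29 alternatives that gave a value and was called in 22. The call was lost without each mimic array in turn (limma adjusted p of 0.0727 to 0.101), without scrambled array 2 (0.069), in the first scan alone (0.0672), without mimic sample 5 (0.0595) and with no filter on dim probes (0.153). The type I receptor gene Acvr1, chosen after its values were seen, differed by 0.22 (adjusted p = 0.459, limma) and was the only 1 of the 6 above 0. The other 5 were below 0, as were 7195 of all 13138 genes tested. Among them was the co-receptor gene Rgmb, at -0.50 (adjusted p = 0.17, limma).

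Of 20 genes for other secreted antagonists and modulators, 8 were tested, 1 rose and 0 fell, with a median difference of 0.49 against -0.05 over all genes tested. That median was not tested, and the filter on dim probes can raise it. Its highest values are those of Bmper and Fst, each well above background in 6 of 6 mimic files. In the scrambled files they were so in 3 of 4 and 1 of 4, so both needed mimic files to pass the filter. The median also includes Bmp1, named after its values were seen, at 0.61 by its brightest probe and -0.15 by the mean of its kept probes. The gene that rose was Bmper, which encodes a secreted protein that binds BMPs and can either block or aid them. Its level was -2.89, -2.86 and -2.88 after the mimic and -4.33 and -4.02 after the scrambled sequence. The groups did not overlap, and the difference was 1.30 ± 0.15 (SE; adjusted p = 0.0123, limma), with 3 of 4 scrambled files well above background. Bmper was higher in all 29 alternatives that gave a value and was called in 25. The call was lost without each mimic array in turn (limma adjusted p of 0.0611 to 0.0872) and with no filter on dim probes (0.153), and with normexp background correction the difference was 0.80. Fst, for the antagonist follistatin, was named after its values were seen. It differed by 1.12 ± 0.30 (SE; adjusted p = 0.0918, limma), with only 1 of 4 scrambled files well above background. The difference was 1.61 without scrambled array 1, 0.63 without scrambled array 2 and 0.42 with normexp background correction.

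Of 18 other Smads and intracellular regulators, 15 were tested and 0 were called, with a median of -0.08. By limma's unadjusted p below 0.05 there were 4 of the 15, against 25.3% of all genes tested, so the count is not read as a result. They are also the 4 with the smallest p. Zfp423, a Smad cofactor, passed the background test in 6 of 6 mimic files and 0 of 4 scrambled files, which gives only a bound. The bound sets each scrambled file at the higher of its own signal and the lowest signal well above background. On the main scaling Zfp423 was at least 1.78-fold higher after the mimic by this bound, 0.84 on the log2 scale. With normexp background correction the difference was 0.55 (adjusted p = 0.215, limma), so the bound holds for the main scaling only. Zfp423 passed the filter only through the mimic files and was not called (adjusted p = 0.0609, limma). Ctdsp2, a phosphatase that acts on Smads, differed by -0.67 ± 0.22 (SE), and Runx1, a transcription factor that can partner with Smads, by -0.54 ± 0.19 (SE). Skil, for the Smad repressor SnoN, differed by 0.42 ± 0.16 (SE). Their adjusted p-values by limma were 0.131, 0.153 and 0.182. Without scrambled array 1 Ctdsp2 differed by -0.98 and Skil by 0.59, and without scrambled array 2 by -0.36 and 0.24. Smad4, the partner of Smad1 and Smad5, differed by 0.39 (adjusted p = 0.307, limma) and was named after its values were seen.

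Of 16 other genes known as BMP targets in some tissue, 8 were tested and 0 were called, with a median of 0.10. In limma 3 of the 8 had an unadjusted p below 0.05, against 25.3% of all genes tested. The homeobox gene Dlx2 differed by 0.83 ± 0.17 (SE; adjusted p = 0.0513, limma). Hey1, a transcriptional repressor that Notch also induces, differed by -0.75 ± 0.20 (SE; adjusted p = 0.0913, limma). It was -0.47 (adjusted p = 0.0415, limma) without scrambled array 1 and -1.04 (adjusted p = 0.0307, limma) without scrambled array 2. Msx2, a homeobox gene of bone and limb, differed by 0.43 ± 0.14 (SE; adjusted p = 0.139, limma). With normexp background correction the difference was 0.34 for Dlx2, 0.15 for Msx2 and -0.61 for Hey1. Junb, an AP-1 subunit, differed by -0.87 ± 0.39 (SE; adjusted p = 0.229, limma). The scrambled files that had the probe well above background were 3 of 4 for Dlx2, 2 of 4 for Msx2 and 3 of 4 for Junb, and Junb passed in only 2 of 6 mimic files. As with the Id genes, values lay on both sides of 0.

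**Figure D4:**
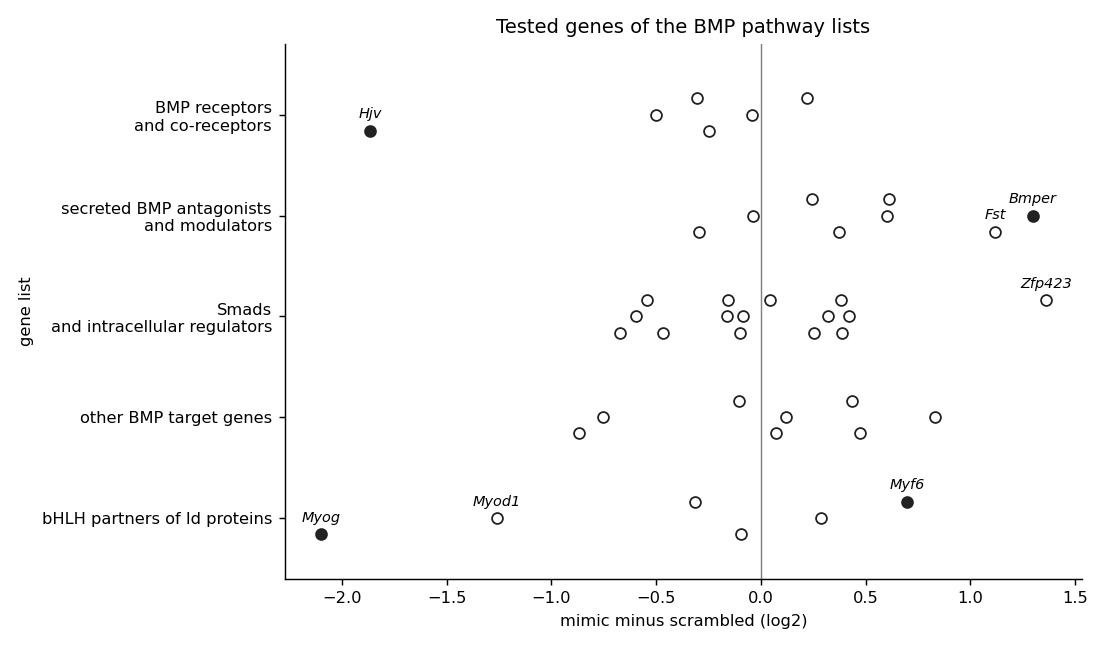
Difference of each tested gene of 5 pathway lists (x axis, log2, mimic minus scrambled), with the lists on the y axis and points offset only to keep them apart. Filled points have a limma adjusted p below 0.05, namely Hjv, Bmper, Myog and Myf6. Zfp423 is drawn at its fitted value but was well above background in no scrambled file, and Myod1 and Fst are labelled although not called.

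The bHLH factors on which Id proteins act were measured beside them. Of 9 such genes 6 were tested, 1 rose and 1 fell, with a median of -0.20. Myog, for myogenin, which drives myoblasts into differentiation, fell. Its level was 0.32, 0.46 and 0.50 after the mimic and 2.22 and 2.83 after the scrambled sequence, a difference of -2.10 ± 0.21 (SE; adjusted p = 0.00918, limma). Myog was called in 27 of 30 alternatives, the exceptions being the fits without mimic array 1 (limma adjusted p = 0.0615) or 2 (0.0546) and with no filter on dim probes (0.0866). Myf6, for the late myogenic factor MRF4, rose from -3.49 and -3.67 on the scrambled arrays to -2.89, -2.83 and -2.93 on the mimic arrays. That difference was 0.70 ± 0.14 (SE; adjusted p = 0.049, limma), close to the threshold, and Myf6 was called in 11 of 30 alternatives. Myod1 and the E protein genes were named after their values were seen. Myod1 differed by -1.26 ± 0.31 (SE; adjusted p = 0.0802, limma). It differed by -1.79 without scrambled array 1 and by -0.73 without scrambled array 2. The E protein genes, whose products Id proteins capture, differed by -0.09 for Tcf3, -0.32 for Tcf4 and 0.29 for Tcf12, and none was called.

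Markers of cell types moved in the same comparison. Of 8 myoblast and myotube markers, 7 were tested, 0 rose and 3 fell, with a median of -1.36. Over all genes tested 2.34% fell. Their summed relative signal was 10.0 to 10.6 on the mimic arrays and 25.1 to 27.8 on the scrambled arrays. The genes that fell were Myog, Myh3 and Tnnt1, for myogenin, a myosin heavy chain and a troponin. These 3 had the brightest probes of the list on both scrambled arrays and weighed most in the sum there. The sum is therefore not a separate result for the list as a set. Myh3 was called in 26 of 30 alternatives and Tnnt1 in 27, and both calls were lost without mimic array 1 or 2 and with no filter on dim probes, that of Myh3 also without mimic array 3. Myod1, Des and Cdh15, which mark myoblasts, were well above background in all 10 files, and Myf5, another myoblast factor, in 1. Des differed by -0.87 (adjusted p = 0.138, limma) and Cdh15 by -0.70 (adjusted p = 0.0712, limma), and neither was called. For all 7 tested markers the mimic arrays lay below both scrambled arrays, against 25.8% of all genes tested. The part of this list in the differences of the BMP and Id genes was not tested.

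Of 6 osteoblast markers only Phex was tested, at 0.38 (adjusted p = 0.194, limma). Sp7, Ibsp, Alpl and Dlx5 were well above background in no file and Bglap in 1, a mimic file. These listed genes were thus at or near background and were not tested. Dim as it was, Bglap had a difference of 1.47 without overlap between the groups. Sp7, Ibsp, Alpl and Dlx5 had differences of the opposite sign, and their groups overlapped. Other osteoblast genes that BMP turns on were not part of this list. Of 4 fibroblast markers 2 were tested, with differences of opposite sign. Pdgfra fell by 0.96 (adjusted p = 0.0304, limma), with 1 of 6 mimic and 3 of 4 scrambled files well above background. It was called in 16 of 29 alternatives, and in the deposited value table its sign turned, to 1.28. Col1a1, a collagen gene, differed by 0.55 ± 0.20 (SE; adjusted p = 0.166, limma), with all 3 mimic arrays above both scrambled arrays. It differed by 0.85 without scrambled array 1 and by 0.26 without scrambled array 2. The summed relative signal of the 4 fibroblast markers was 3.29 to 3.40 on the mimic arrays and 1.89 to 2.83 on the scrambled arrays. Nearly all of it came from Col1a1, which was not called. Pdgfra added little and fell, and Thy1 and Tcf21 were well above background in no file. The sum therefore does not describe the fibroblast markers as a set, and their part was not tested. The 3 adipocyte and 2 endothelial markers were well above background in no file. Of 2 blood markers, Ptprc was well above background in no file and Cd68 differed by 0.53 (adjusted p = 0.095, limma).

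The genes whose array profiles were most like those of the Id genes were found by the distance between levels on the 5 arrays, each gene centred on its own mean. For Id1 they were Lsm12, Wnk1 and Mrps2, at distances of 0.038, 0.0419 and 0.0434. For Id2 they were Plekha1, Neurl2 and Nubpl, at 0.028, 0.033 and 0.0514. For Id3 they were Ddx56, Eif4ebp3 and Psmc4, at 0.058, 0.0584 and 0.0633. With 5 arrays and 13138 genes and transcripts, close profiles are frequent, and the lists describe these arrays only.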

How the data were processed

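The authors deposited Agilent 1-colour scanner files, whose spot intensity is linear. Per the file headers, they hold the background-subtracted, detrended processed signal of Feature Extraction 12.0.0.7 with probe positions on mm9. Version 10.7.3.1 is the one in the submitters' processing notes. A deposited value table of intensity, linear and quantile-normalised as its values show, served as an alternative. The filter behind its empty cells (57.1% to 63.1% per column) is not given in the sources used here, and its column medians were 192.1 to 294.15.

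Control and outlier spots (157 to 270 per file) were left out, log2 signals were taken, and each file was scaled by subtracting the 75th percentile of the 13029 probes that all files detected well above background. A probe was kept when at least 4 of 10 files detected it (16786 probes), and the brightest probe stood for its gene. Genes without an unmarked value on an array (50) were left out. Probes were named through RefSeq accession (28026), symbol (3418) or older symbol (295), and otherwise as in the files (23942). The test was limma 3.58.1 under R 4.3.3 (3 residual degrees of freedom), with scripts tested on simulated data.

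The members and lists were chosen with earlier results of these data known. Named genes were all members and, of each list, those past the threshold, or the 4 with the smallest p where none or more than 4 passed. For each Id gene the 3 nearest profiles were named. Samples with the same number were not taken as pairs across groups. Alternatives covered background correction, scaling, filters, probe choice, variance model, scans and left-out arrays or files.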

Additional observations from a re-analysis of the deposited data

How the results depend on the processing

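Of 30 alternatives, Bmp4 was higher after the mimic in 30 and called in 27, with differences of 1.25 to 1.56. It was not called without a filter on dim probes (adjusted p = 0.135, limma) or without mimic array 1 or 2. Grem1 was lower in 30 and called in 6 (-0.83 to -0.54), Id1 lower in 30 and called in 2 (-0.64 to -0.27), Id2 higher in 30 and called in 4 (0.42 to 0.66), and Id3 lower in 30 and called in 2 (-0.78 to -0.28). The members called were 2 (Bmp4 and Grem1) with probes above background in all files or with a trended, robust variance, 0 with no filter, 5 with 10 files as separate arrays, 3 (Bmp4, Id2 and Grem1) with scan as a block and array position as a random block, and 0 to 6 with an array or file left out. Genes called over the whole table, 676, became 17 with no filter, 4512 with 10 files as separate arrays, 1459 with scan as a block, and 47 to 4352 with an array or file left out; the 4352 arose without scrambled array 1. Mimic and scrambled samples with the same number did not deviate together (correlations of -0.318 to 0.353 over 4 pairs, and 2 of 8 samples correlated best with their own number). With the 10 files as separate arrays and the replicate block 1950 genes and 3 members (Bmp4, Id2 and Grem1) were called, fewer than the 4512 genes and 5 members of the same 10 files without it. Bmpr2 turned to 0.0906 with quantile normalization, 0.114 with the percentile over all probes and 0.0854 in the deposited value table, and ranged from -0.107 to 0.0271 with an array or file left out. Smad1 turned to 0.18, 0.15 and 0.20 in those settings, to 0.0374 with 10 files and the replicate block and to 0.00513 in the first scan, and ranged from -0.19 to 0.20 with an array or file left out. Those ranges were -0.26 to 0.50 for Bmpr1a and -0.0238 to 0.76 for Smad5. The percentile over all probes moved the median of all genes from -0.05 to 0.11, and the share of calls that were lower from 45.6% to 31.8%; it was 36.8% with quantile normalization and 37% in the deposited value table. The cause of these changes was not tested. Fits that left 1 scrambled array assume that it varies like the mimic arrays.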
